A study of Mus musculus with 2 samples.

Results

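The interleukin 1 (IL-1) and tumour necrosis factor (TNF) signalling genes described here are 9 members of the 39098 genes listed in the count matrices, namely Il1a, Il1b, Il1rn, Il1r1, Il1rap, Il1r2, Tnf, Tnfrsf1a and Tnfrsf1b. They were chosen by name as the ligands, the antagonist and the receptors of both systems, and the rule itself uses no measured value. All 9 had counts in both libraries, among 36541 (control) and 32641 (CFA) genes with any count. The question was which immune and other cells of the trigeminal ganglion (TG) held the RNA of the cytokines, and which held the RNA of their receptors, in each library.

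IL-1α and IL-1β are cytokines that bind the same receptor, IL1R1, which signals only once the accessory protein IL1RAP has joined it. Their action is held back by a secreted antagonist, encoded by Il1rn, and by the decoy receptor IL1R2, which binds IL-1 without signalling. TNF acts through TNFR1 (Tnfrsf1a), found on most cell types, and TNFR2 (Tnfrsf1b), found mainly on immune and endothelial cells. In sensory ganglia both cytokines are known as signals from immune and glial cells that can sensitise nociceptors.

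The study dissociated right TG of male C57BL/6 mice aged 5 to 8 weeks and counted polyA RNA in single cells with the BD Rhapsody system, in 1 library per condition. The CFA library came from TG taken 7 days after 20 μL of complete Freund's adjuvant, an emulsion of killed mycobacteria that causes lasting inflammation, had been injected into the right vibrissal pad. GEO's label calls the mice of the control library untreated, whereas the study's methods give them a saline injection. The study used 6 mice per group, and the number of mice in each library was not given in the sources used here.

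After filtering, 6695 of 7298 control cells and 3661 of 4080 CFA cells remained, with 48233077 and 21658155 unique molecular identifiers (UMIs, here called counts) and medians of 1448 and 1192 UMIs per cell. A total of 27 cell labels occurred in both libraries, which is 0.662% of the CFA labels. Cells were clustered without the 9 genes and without the other genes of their pathway, and each class is a set of clusters named from marker genes. Immune cells (ICs) numbered 420 (control) and 248 (CFA), and their defining marker Ptprc stood at 707 and 736 CPM (counts scaled to a class total of 1e+06) there and at 3.95 CPM or less in each other class. Some clusters belonged almost wholly to the control library, and both were led by interferon-induced genes. They were an IC subcluster of 34 monocyte-like cells that held no CFA cell, and a satellite glial cell (SGC) cluster with 226 control and 2 CFA cells. Monocyte markers were also found in ICs of the CFA library, in an unnamed subcluster led by Cd209a that is described at the end. A list of 10 interferon-induced genes summed to 1416 CPM in control ICs and 404 CPM in CFA ICs, with 10 of 10 genes lower in the CFA library, and to 665 CPM in control ICs without the monocyte-like cells. Its part in the values below was not tested.

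Every level below is the CPM of the summed counts of a class in one library, with its exact 95% Poisson interval in brackets. Ratios are log2 of CFA over control CPM with an exact 95% interval. These intervals cover counting error only. With 1 library per condition no difference could be tested against variation between mice, so no p-value is given, and the condition and the library cannot be told apart.

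The control regions just before the starts of the 3 cytokine genes shared a sequence feature that the choice of genes did not use. The 100 bases before each start are printed 5′ to 3′ on the gene's strand, from RefSeq on GRCm38.p6, with the TATA box letters TATAAA in capitals, because these 3 genes held them and the other 6 did not.
Il1a, chr2:129309973-129310072, minus strand: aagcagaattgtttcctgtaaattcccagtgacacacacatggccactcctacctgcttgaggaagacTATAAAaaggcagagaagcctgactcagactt
Il1b, chr2:129371140-129371239, minus strand: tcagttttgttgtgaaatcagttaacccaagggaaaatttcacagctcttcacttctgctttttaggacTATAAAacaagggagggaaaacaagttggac
Tnf, chr17:35202008-35202107, minus strand: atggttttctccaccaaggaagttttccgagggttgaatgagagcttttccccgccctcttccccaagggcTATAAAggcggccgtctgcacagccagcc
Tnfrsf1a, chr6:125349623-125349722, plus strand, without the letters: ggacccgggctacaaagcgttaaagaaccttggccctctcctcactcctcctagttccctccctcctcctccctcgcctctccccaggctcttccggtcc
The last base of the letters lay 27, 26 and 24 bases before the start in Il1a, Il1b and Tnf. The search covered both strands of the 250 bases before each annotated start, and 12.4% of 32851 promoters held these letters. The NF-kB consensus, searched by its name pattern on both strands, was found in 5.93% of promoters and before 1 start of Il1r1 only among the 9 genes. The letters GAGGAA, taken here for ETS factors, were searched too. They were found in 23.3% of promoters and, among the 9 genes, before Il1a, Tnf and Tnfrsf1b. Shorter or other forms of the ETS core were not searched, so genes without these letters may still hold one. The TATA box was thus picked from several patterns. Such a match describes letters in a window and says nothing of a factor's binding.

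The RNA of the 3 cytokines, of the antagonist and of the decoy receptor lay mainly in ICs, whereas Il1r1, Il1rap and Tnfrsf1a lay mainly outside them. ICs made up 6.27% of control and 6.77% of CFA cells. They held more than 50% of the counts of 6 of the 9 genes in both libraries (Il1a, Il1b, Il1rn, Il1r2, Tnf and Tnfrsf1b), where 2.79% of 17822 control and 2.34% of 15806 CFA genes with at least 20 counts did so. More than 90% lay in ICs for 3 of the 9 (control) and 5 of the 9 (CFA), against 1.1% and 1.21% of those genes. ICs were the class with the highest level for 7 of the 9 in each library (15.5% and 13% of all genes). Fibroblasts (FBs) were highest for Il1r1 (7.33% and 7.62% of all genes), and oligodendrocyte-lineage cells (OLCs) for Il1rap (10.9% and 9.91%). Among glia, SGCs had 0 counts of Il1a and Il1b in both libraries, and 2 (control) and 1 (CFA) of Tnf. Myelinating Schwann cells had 3 and 0 counts of Il1a, 3 and 1 of Il1b, and 0 of Tnf in both. A count of 0 does not show that a gene is silent.

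**Figure D1:**
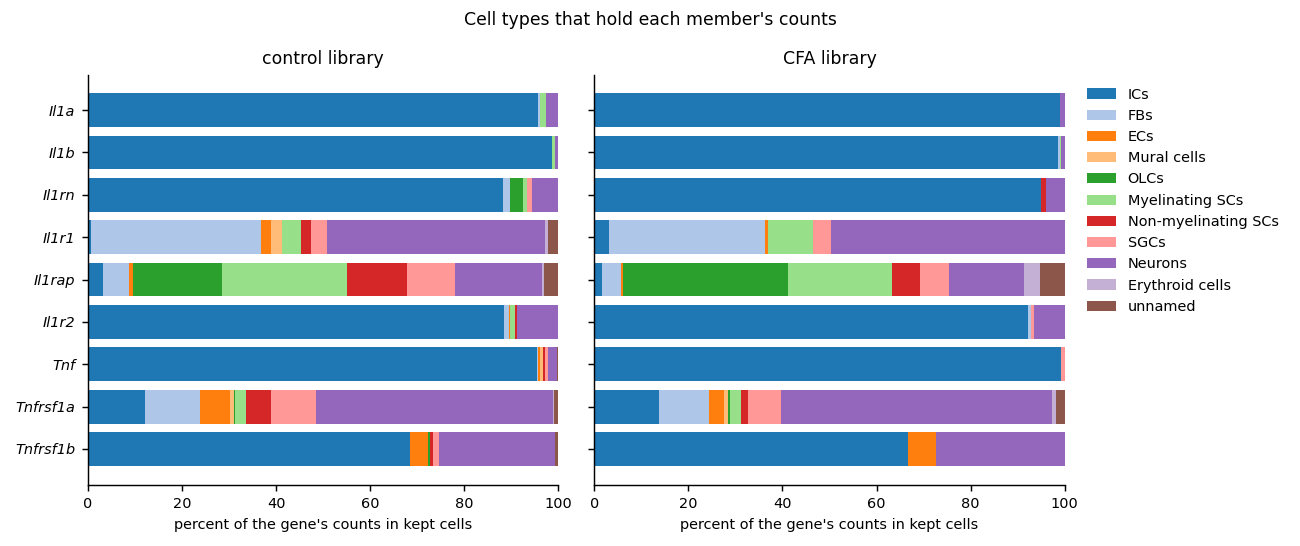
Percent of each gene's counts in all kept cells (x axis) that lay in each cell class (colours), in the control (left) and CFA library (right). The bars of Il1a, Il1b, Il1rn, Il1r2 and Tnf are filled mainly by ICs, the largest piece of Tnfrsf1a and Il1r1 is neurons, and Il1rap is spread over Schwann cells, OLCs and neurons.

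**Figure D2:**
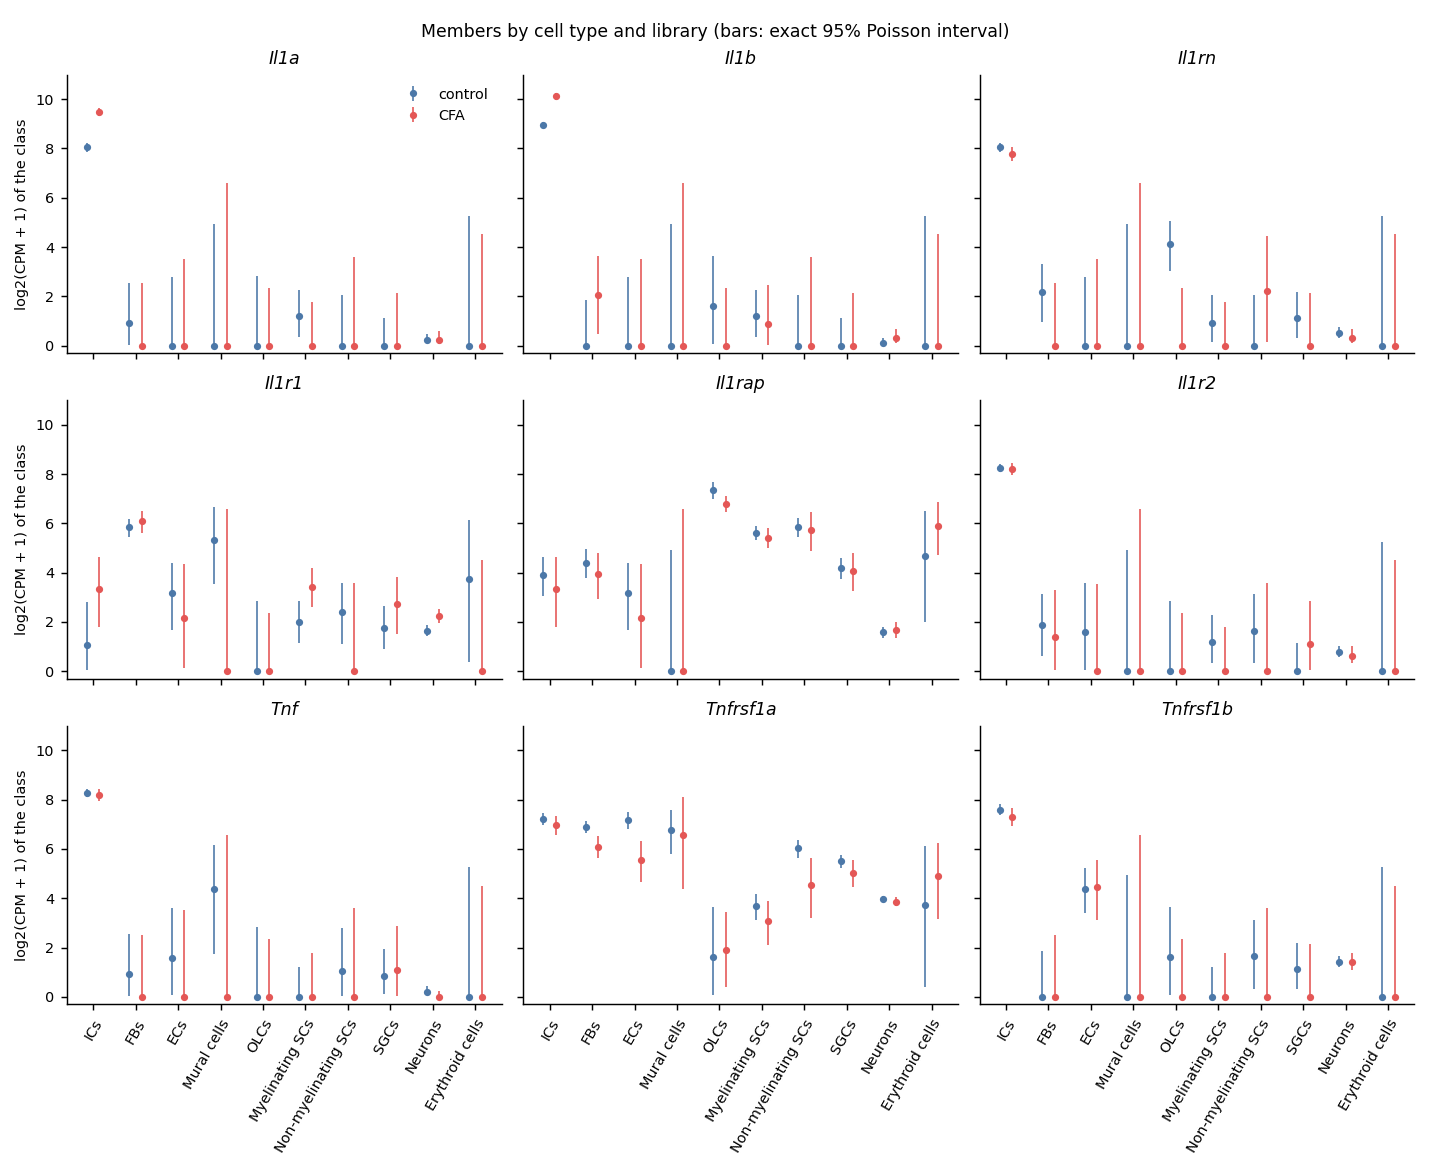
Level of the 9 genes as log2(CPM + 1) of the class sum (y axis) in 10 cell classes (x axis) of the control (blue) and CFA (red) library, with bars for the exact 95% Poisson interval and classes without counts drawn at 0. ICs stand above the other classes for Il1a, Il1b, Il1rn, Il1r2, Tnf and Tnfrsf1b, FBs lead for Il1r1 and OLCs for Il1rap.

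Il1a, which encodes IL-1α, a cytokine held inside cells and released from stressed or dying ones, was an IC transcript found mainly in macrophage-like cells. Of its 258 control and 313 CFA counts, ICs held 95.7% [92.5 to 97.9] and 99.0% [97.2 to 99.8]. Control ICs stood at 264 CPM [232 to 299] and CFA ICs at 715 CPM [638 to 799], 2.71-fold higher (log2 1.44 [1.19 to 1.68]). A count of Il1a was seen in 14.0% of control and 34.3% of CFA ICs, and in 6.46% and 19.0% after each cell was thinned to 500 UMIs. Neurons, which have far more UMIs per cell (medians of 43660 and 35110, against 1756 and 1550.5 in ICs), showed a count in 0.73% and 0.70% of cells.

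Among the IC subclusters, Il1a was highest in a macrophage-like one led by P2ry12, Tmem119 and Sall1, genes known from microglia. It detected 6 of the 9 macrophage markers, none of them among its 10 leading genes, and its marker score of 0.599 was near the limit of 0.55 for a name, so the macrophage sums below hold these cells under a name that rests on few markers. Control cells of this kind stood at 1856 CPM [1564 to 2186], with 23 of 29 positive, and CFA cells at 2270 CPM [1978 to 2593], with 40 of 46 positive. These cells were 6.90% of control and 18.5% of CFA ICs, and they held 57.9% and 70% of all IC counts of Il1a. Of all kept cells they were 0.433% (control) and 1.26% (CFA). OLCs also had a higher share in the CFA library, 4.04% of kept cells beside 1.64% in the control. What lay behind these shares was not tested. The other macrophage-like subclusters were led by Apoe, Fblim1 and Mobp and by Mmp13, Cbr2 and Ccl12. They stood at 414 and 341 CPM (control) and at 400 and 461 CPM (CFA). The Apoe subcluster detected 9 of the 9 macrophage markers, at a score of 0.851. Its leading gene Mobp is also an OLC marker, and the part of mixed cells was not tested. Neutrophil-like cells had 0 counts in both libraries, which allows up to 32.5 and 87.2 CPM, and T, NK, B and monocyte-like cells also had 0.

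Within each of the 3 macrophage-like subclusters the Il1a ratio was smaller than in ICs as a whole. It was 0.29 [-0.02 to 0.61] in the P2ry12 subcluster, -0.05 [-0.77 to 0.67] in the Apoe subcluster and 0.43 [-0.19 to 1.05] in the Mmp13 subcluster. When the IC subclusters were given the same weights in both libraries, the IC ratio was 0.48 and no longer reached 2-fold. A single P2ry12 cell held 40 of the 247 control IC counts.

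Il1b encodes IL-1β, which is made as a precursor and cut by caspase-1 in the inflammasome. It was spread over more kinds of ICs than Il1a, with neutrophil-like cells at the top. Of its 472 control and 488 CFA counts, ICs held 98.5% and 98.6%. Control ICs stood at 497 CPM [453 to 545] and CFA ICs at 1109 CPM [1012 to 1213], 2.23-fold higher (log2 1.16 [0.97 to 1.34]). Positive cells were 24.3% and 34.7% of ICs, or 14.8% and 19.8% after thinning, against 0.365% and 0.935% of neurons.

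Neutrophil-like cells of the control stood at 1126 CPM [920 to 1364], with 23 of 44 positive, and those of the CFA library at 4506 CPM [3825 to 5274], with 16 of 23 positive. The log2 ratio was thus 2.00 [1.63 to 2.37]. Of the 5 members with enough counts in these cells, Il1b alone was at least 2-fold higher and none lower, where 8.96% of 949 genes were higher and 11.3% lower. In the control library the monocyte-like cells came next at 826 CPM, below neutrophils by an interval that nearly reached equality (log2 0.45 [0.04 to 0.86]). They were followed by an unnamed subcluster led by Cd209a, Ace and Ear2 at 697 CPM and by macrophages at 491 CPM.

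Higher Il1b in the CFA library was seen in 4 of the 5 myeloid subclusters with cells in both libraries. The Cd209a subcluster went from 697 to 1712 CPM (1.30 [0.86 to 1.73]), the Apoe macrophages from 609 to 1200 CPM (0.98 [0.48 to 1.49]) and the Mmp13 macrophages from 388 to 838 CPM (1.11 [0.61 to 1.62]). The P2ry12 macrophages, which led for Il1a, stood at 597 and 575 CPM (-0.05 [-0.64 to 0.54]), with 32 of the 46 control counts in 1 cell. With subclusters weighted alike the IC ratio was 1.27, and without the monocyte-like cells it was 1.31, so both kept Il1b above 2-fold. B-like and NK-like cells had 0 counts of Il1b in both libraries.

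Il1a and Il1b were the 2 of 7 members with at least 20 counts in ICs that were at least 2-fold higher there, where 3.38% of 7935 genes were. No member was at least 2-fold lower in ICs, where 11.3% of genes were, and the median log2 ratio over all genes tested in ICs was -0.13. In the 3 macrophage-like subclusters summed, 0 of 6 members passed 2-fold in either direction, against 4.09% of 4718 genes higher and 7.57% lower. This count depends on the processing, since Il1a reached 1.10 after thinning, and Il1b reached 1.13 with 4000 variable genes but 0.40 after thinning. There Il1a stood at 711 and 1086 CPM (0.61 [0.36 to 0.86]) and Il1b at 491 and 866 CPM (0.82 [0.52 to 1.12]).

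**Figure D3:**
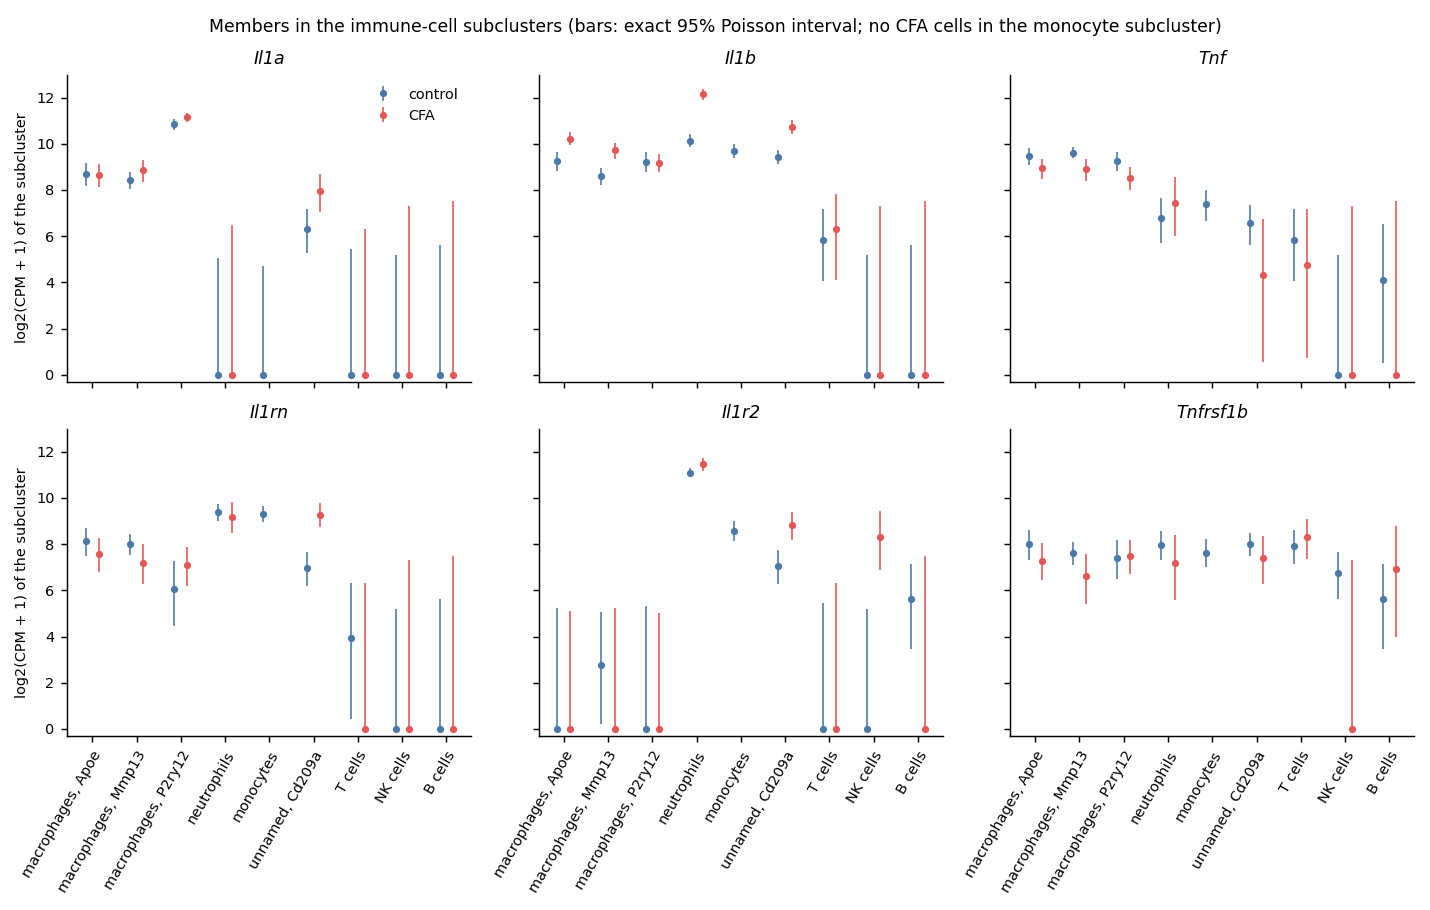
Level of 6 genes as log2(CPM + 1) of the subcluster sum (y axis) in 9 IC subclusters (x axis, named by class and leading gene) of the control (blue) and CFA (red) library, with bars for the exact 95% Poisson interval. Il1a peaks in the P2ry12 macrophages, Il1b and Il1r2 in neutrophils, Tnf is alike in the 3 macrophage subclusters, and Tnfrsf1b is spread over most subclusters.

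Il1rn, whose secreted product occupies IL1R1 without activating it, was found in the same broad group of cells as Il1b and was low in the P2ry12 macrophages of the control library. ICs held 88.2% of 280 control counts and 95% of 100 CFA counts. In ICs it stood at 264 CPM [232 to 299] and 219 CPM [177 to 268], a log2 ratio of -0.27 [-0.63 to 0.08], and at 209 CPM in the control without the monocyte-like cells (ratio 0.07). In the control library neutrophil-like cells at 671 CPM and monocyte-like cells at 636 CPM did not differ beyond counting error (log2 0.08 [-0.43 to 0.58]).

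Macrophages stood at 217 and 157 CPM, and within them the P2ry12 subcluster had 5 and 13 counts (64.9 and 136 CPM). Neutrophil-like cells had 671 and 581 CPM (-0.21 [-1.01 to 0.54]), beside the log2 ratio of 2.00 for Il1b in the same cells. The Cd209a subcluster went from 124 to 621 CPM (2.32 [1.42 to 3.28], or 5.01-fold), but its 33 CFA counts came from 5 cells. Outside ICs, 8 control counts lay in 1 OLC and 7 of the 16 control counts of neurons in 1 cell.

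The 2 chains of the signalling IL-1 receptor had their highest levels in different cells. Il1r1, the ligand-binding chain, was led by FBs at 56.1 CPM [43.2 to 71.6] (control) and 66.7 CPM [48.1 to 90.2] (CFA, 0.25 [-0.35 to 0.84]). A count was seen in 9.81% and 9.68% of FBs, or 2.58% and 3.28% after thinning, against 0.238% and 1.21% of ICs. In the control, mural cells followed at 39.2 CPM on 4 counts and did not differ from FBs beyond counting error (log2 0.52 [-0.91 to 2.44]), and in the CFA library myelinating Schwann cells (SCs) followed at 9.78 CPM, below FBs (2.77 [1.82 to 3.83]). The remaining classes stood at 12.4 CPM or less in both libraries, and OLCs had 0 counts in both. The make-up of the FB class differed between the libraries (591 control and 403 CFA cells). A cluster led by Ecrg4 and Slc4a10 had 6 control and 37 CFA cells, and its score of 0.565 was near the limit for a name. Another, led by Ptgds and Slc6a13, had 81 and 96 cells. The part of this make-up in the FB ratios was not tested.

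Neurons held 46.3% and 49.6% of all Il1r1 counts, at a low level and with many UMIs per cell. Control neurons stood at 2.12 CPM [1.69 to 2.63], on 82 counts in 65 cells, and CFA neurons at 3.75 CPM [2.88 to 4.79], on 63 counts in 52 cells (log2 0.82 [0.32 to 1.31]). A count was seen in 7.91% and 12.1% of neurons, or 1.01% and 2.46% after thinning to 5000 UMIs. Within neurons, Il1r1 was seen mainly in C-fibre low-threshold mechanoreceptors (cLTMR) and in some peptidergic (PEP1) clusters. cLTMR had 6.08 and 9.22 CPM, in 17 of 73 and 15 of 48 cells (0.60 [-0.33 to 1.52]). The PEP1 cluster led by Dcn and Cartpt had 8.03 and 6.64 CPM. Dcn is also a marker of FBs, the class highest for Il1r1, and the part of mixed cells was not tested. The PEP1 cluster led by Sstr2 had 1.99 and 6.09 CPM on 6 and 12 counts (1.61 [0.09 to 3.31]). The largest neurofilament (NF) cluster, led by Hjurp, Trpm8 and Mt2, had 1 count in 73 control cells and 0 in 47 CFA cells.

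The 4 Il1r1 counts of CFA ICs all lay in T-like cells. That subcluster also carried mast cell markers, 6 of 6 at 1782 CPM (control) and 5 of 6 at 3316 CPM (CFA). Its score was 1 for T cells and 0.780 for mast cells, so it may hold mixed cells. Myelinating SCs had 7 control and 12 CFA counts (3.03 and 9.78 CPM, log2 1.69 [0.23 to 3.27]), which is under the minimum of 20 counts for the 2-fold rule. In myelinating SCs 0 of 2 members reached 2-fold, where 2.61% of genes were higher and 4.25% lower, and in cLTMR 0 of 2, where 1.16% were higher and 2.51% lower. In cLTMR the Il1r1 ratio was 1.22 after thinning and 1.15 with every cell weighted equally, both past 2-fold.

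Il1rap, the accessory chain that IL-1 shares with IL-33, was highest in OLCs, the myelinating cells of the central part of the root. They stood at 161 CPM [128 to 201] (control) and 110 CPM [87.4 to 137] (CFA, -0.55 [-1.02 to -0.09]), with counts in 38.2% and 35.1% of cells, or 6.38% and 5.80% after thinning. OLCs were above non-myelinating SCs, the next class in the control at 56.6 CPM (log2 1.51 [0.99 to 2.04]). In the CFA library erythroid cells came next at 58.3 CPM on 8 counts and were not separated from OLCs by counting error (0.92 [-0.13 to 2.18]). Among all genes tested in OLCs, 4.13% were at least 2-fold higher and 3.42% at least 2-fold lower, and Il1rap was neither, although with every cell weighted equally it was just past 2-fold lower.

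Both SC types carried Il1rap at like levels, 56.6 and 51.7 CPM in non-myelinating and 48.1 and 41.6 CPM in myelinating SCs. Neither the types (control log2 0.23 [-0.27 to 0.72]) nor the libraries (myelinating SCs, -0.21 [-0.72 to 0.28]) differed beyond counting error. The non-myelinating cluster scored 0.742, beside 0.690 for myelinating SCs. It carried the myelinating marker list at 26760 and 19530 CPM, beside 77070 and 64890 CPM in myelinating SCs. The part of mixed cells in the like levels was not tested. FBs stood at 20.2 and 14.3 CPM, SGCs at 17.2 and 15.8 CPM, ICs at 13.9 and 9.23 CPM, and neurons at 1.99 and 2.20 CPM. Within neurons cLTMR had 6.08 and 6.45 CPM, in 20 of 73 and 11 of 48 cells. The PEP1 cluster led by Iigp1 had 4.22 and 11.6 CPM on 6 and 5 counts. The classes with the highest Il1rap levels thus had few or no Il1r1 counts, and FBs, first for Il1r1 level, were well below them. By counts rather than CPM the chains were less apart. Neurons held 82 and 63 Il1r1 counts, and 77 and 37 Il1rap counts (18.4% and 16.0% of all). Both chains were seen in the same cell in 7 control and 4 CFA neurons, of which 4 and 2 were cLTMR, and in 3 and 1 FBs. These and the later numbers of cells with 2 genes were not set against those expected from each gene alone.

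**Figure D4:**
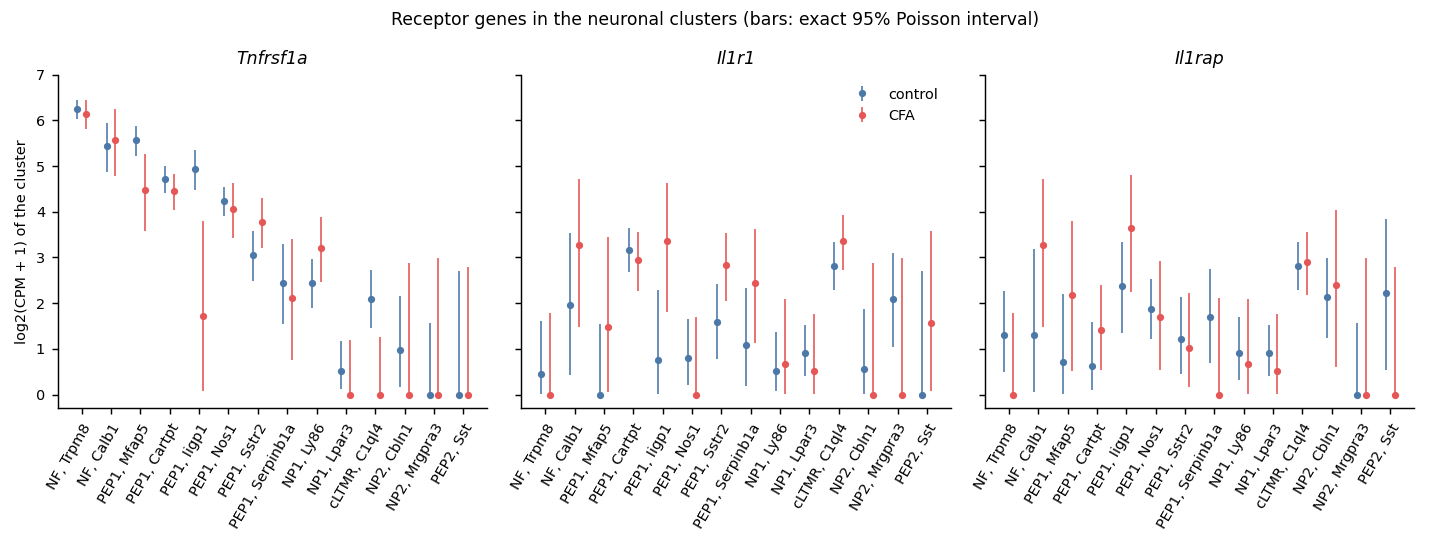
Level of Tnfrsf1a, Il1r1 and Il1rap as log2(CPM + 1) of the cluster sum (y axis) in 14 neuronal clusters (x axis, named by class and one of the leading genes, not always the first) of the control (blue) and CFA (red) library, with bars for the exact 95% Poisson interval. Tnfrsf1a is highest in the Trpm8 NF cluster and at or near 0 in NP2 and PEP2, while Il1r1 and Il1rap stay under 12 CPM everywhere.

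Il1r2, the decoy receptor, was a neutrophil transcript in both libraries. ICs held 88.5% of its 321 control counts and 92.1% of its 139 CFA counts, and neutrophil-like cells alone held 62.9% and 69.8%. Those of the control stood at 2187 CPM [1896 to 2510], with 38 of 44 positive, and those of the CFA library at 2820 CPM [2287 to 3440], with 20 of 23 positive (0.37 [0.00 to 0.72]). In the control, monocyte-like cells came next at 380 CPM, well below neutrophils (log2 2.53 [2.06 to 3.02]). Macrophages had 1 control count and 0 CFA counts.

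The Cd209a subcluster went from 132 to 451 CPM of Il1r2 (1.78 [0.82 to 2.76]) on 17 and 24 counts, each in 6 cells. In ICs together the level was 304 and 295 CPM (-0.04 [-0.35 to 0.26]). A share of 2.92% of control and 2.10% of CFA neurons had a count. Of the 28 control and 9 CFA counts of neurons, 12 and 2 lay in PEP1. Another 6 and 4 lay in the small Sst-led PEP2 cluster (12 and 10 cells). Il1b and Il1r2 were seen together in 22 of 44 control and 13 of 23 CFA neutrophil-like cells. Il1b was seen in 23 and 16 of these cells and Il1r2 in 38 and 20, so many shared cells arise without any link.

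Tnf, the founding cytokine of its family, made as a membrane protein and released by the protease ADAM17, was a macrophage transcript that was alike in all 3 macrophage-like subclusters. ICs held 95.4% of 305 control counts and 99.2% of 128 CFA counts, and macrophages 79.0% and 92.2%. ICs stood at 311 CPM [276 to 349] and 293 CPM [244 to 349] (-0.09 [-0.40 to 0.22]). Positive ICs were 24.8% and 31.0%, or 11.5% and 11.3% after thinning, against 0.73% and 0% of neurons, where 0 of 428 cells allows up to 0.70% of cells with a count, which is no limit on cells that express it.

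Within macrophages Tnf was lower in the CFA library, at 440 CPM beside 726 CPM in the control (-0.72 [-1.05 to -0.40]), while the share of positive cells was 45.1% and 45.4%. The 3 subclusters shared this direction, from 706 to 489 CPM in the Apoe (-0.53 [-1.13 to 0.06]), from 787 to 474 CPM in the Mmp13 (-0.73 [-1.29 to -0.21]) and from 610 to 366 CPM in the P2ry12 macrophages (-0.74 [-1.41 to -0.07]). None reached 2-fold. Macrophages were 162 of 420 control and 152 of 248 CFA ICs, and with subclusters weighted alike the IC ratio was -0.61. A single Mmp13 macrophage held 31 of its subcluster's 136 control counts. The interferon-induced list was also lower in CFA macrophages (545 and 351 CPM, 9 of 10 genes lower), and its part in the Tnf value was not tested.

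Tnf was low in other ICs. Neutrophil-like cells had 10 and 6 counts, monocyte-like cells 20 (165 CPM), the Cd209a subcluster 12 and 1, and NK-like cells 0 in both libraries. Of 420 control and 248 CFA ICs, Il1b and Tnf were seen together in 30 and 32, Il1a and Tnf in 32 and 40, and Il1a and Il1b in 20 and 33.

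Tnfrsf1a, which encodes TNFR1, the death-domain receptor that both soluble and membrane TNF activate, was the most widely found member. It had 1142 control and 395 CFA counts, and counts in each of the 10 classes of both libraries. In the control library ICs (148 CPM [124 to 174]), endothelial cells (ECs, 142 CPM [111 to 179]), FBs (117 CPM [98.4 to 139]) and mural cells (108 CPM [53.8 to 193]) followed each other without a step beyond counting error. Non-myelinating SCs at 64.0 CPM came next and were not separated from mural cells (log2 0.75 [-0.33 to 1.69]). SGCs at 44.3 CPM were below non-myelinating SCs (0.53 [0.05 to 1.00]), and neurons at 14.9 CPM below SGCs (1.57 [1.27 to 1.87]). Myelinating SCs at 11.7 CPM and OLCs at 2.04 CPM were lowest.

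In the CFA library Tnfrsf1a was lower in several non-immune classes. ECs went from 142 to 45.7 CPM [24.3 to 78.1] on 72 and 13 counts (-1.64 [-2.62 to -0.78]), where 6.6% of 6027 genes tested in ECs were at least 2-fold lower and 3.7% higher. Non-myelinating SCs went from 64.0 to 22.2 CPM on 60 and 6 counts (-1.53 [-3.03 to -0.32]), where 7.38% of 7701 genes were lower and 3.66% higher. FBs went from 117 to 66.7 CPM (-0.81 [-1.35 to -0.31]), less than 2-fold, where 4.7% of 8913 genes were at least 2-fold lower and 4.45% higher, and -1.01 with every cell weighted equally. The part of the unlike FB make-up in this ratio was not tested.

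For SGCs (44.3 and 31.7 CPM, -0.48 [-1.14 to 0.12]), ICs (148 and 125 CPM, -0.24 [-0.73 to 0.22]) and neurons (14.9 and 13.5 CPM, -0.14 [-0.37 to 0.08]) the interval held equality. In SGCs 0 of 2 members reached 2-fold, where 2.28% of genes were higher and 5.58% lower, but the SGC ratio of Tnfrsf1a was -1.21 after thinning and 0.47 under stricter cell filters. Mural and erythroid cells had no member with enough counts for the rule, which 5.77% and 15.9% of their genes passed upwards and 12.7% and 13.4% downwards. The share of positive ECs was 19.8% and 7.36%, or 9.22% and 3.68% after thinning, at median depths of 1383 and 1555 UMIs. Interferon-induced genes moved the same way in these classes, from 5132 to 3479 CPM in ECs and from 6436 to 3051 CPM in non-myelinating SCs, and their part was not tested.

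**Figure D5:**
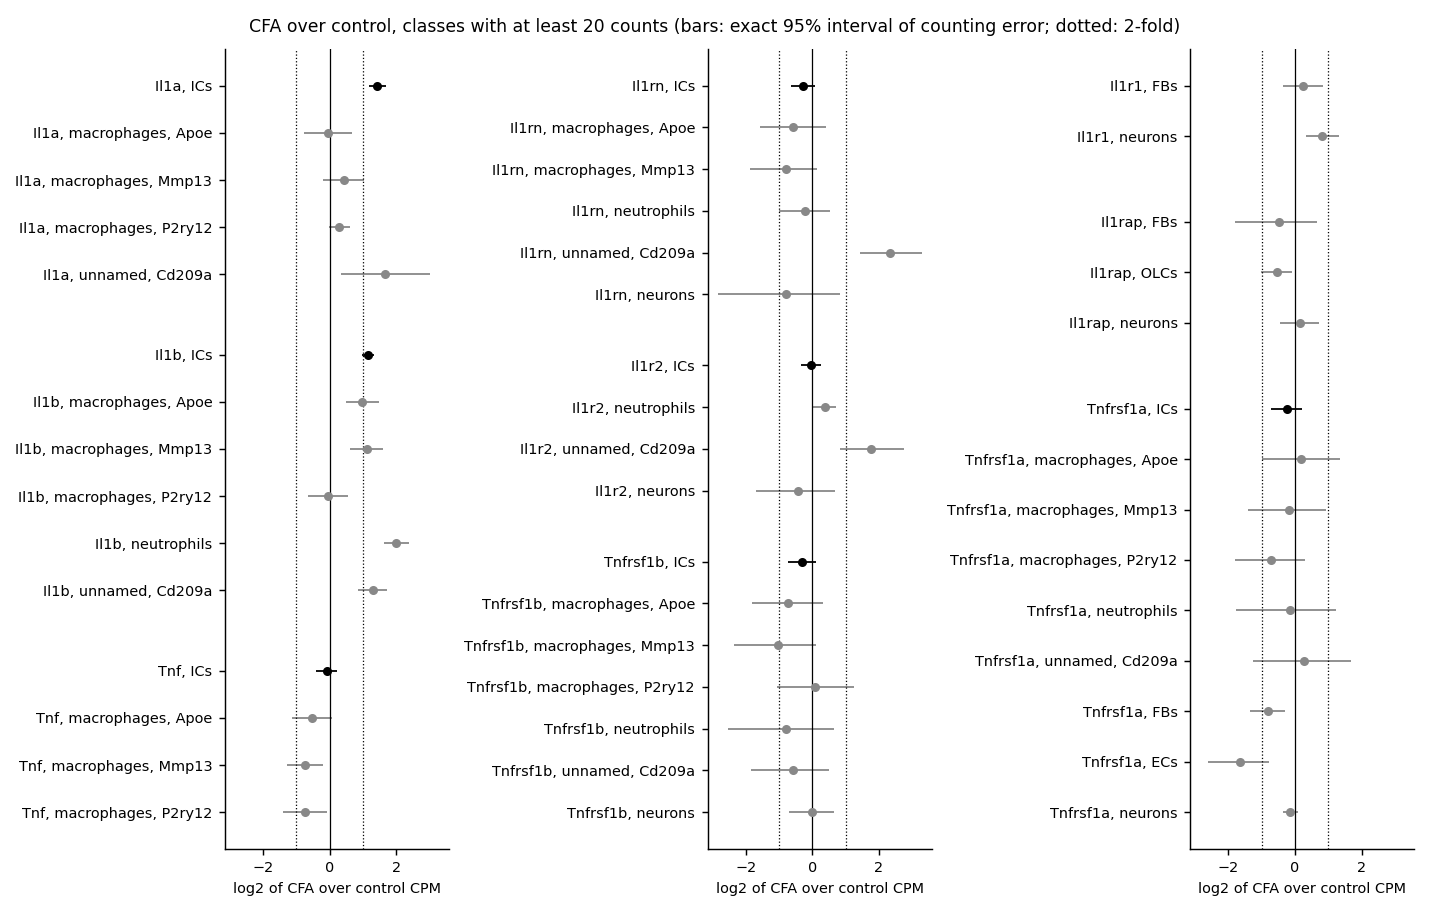
Log2 of CFA over control CPM (x axis) for each gene in the main cell classes and IC subclusters that had at least 20 counts over both libraries (ICs black, others grey; Schwann cells and SGCs not drawn), with bars for the exact 95% interval of counting error and dotted lines at 2-fold. Il1a and Il1b lie above 2-fold in ICs, Il1b highest in neutrophils, Tnf lies below 0 in each macrophage subcluster, and Tnfrsf1a lies lowest in ECs.

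Neurons held 50.4% of control and 57.5% of CFA counts of Tnfrsf1a. Their low CPM is a share of many UMIs per cell (medians of 43660 and 35110). A count was seen in 230 of 822 control and 106 of 428 CFA neurons, beside 99 of 420 and 50 of 248 ICs. The level of Tnfrsf1a differed widely between neuronal clusters. The NF clusters summed stood highest, at 67.8 and 64.2 CPM together (-0.08 [-0.43 to 0.26]), where 1.51% of genes tested in NF neurons were at least 2-fold higher and 2.9% lower. Of these, the Trpm8 cluster stood at 74.4 and 69.2 CPM, in 51 of 73 and 30 of 47 cells, and the Calb1 and Spp1 cluster at 42.2 and 46.3 CPM, near the Mfap5-led PEP1 cluster in the control (46.1 CPM). The name of the Trpm8 cluster is a leading gene only. Pvalb was also among its 10 leading genes and its NF score was 0.689, so it may hold mixed neurons. PEP1 neurons followed at 19.9 and 14.7 CPM (-0.43 [-0.76 to -0.12]), and 0 of 4 members reached 2-fold in them, where 1.97% of genes were higher and 2.84% lower. After thinning, the PEP1 ratio was -1.05 for Tnfrsf1a and 1.82 for Il1r1, both beyond 2-fold.

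Nonpeptidergic NP1 neurons stood at 2.01 and 3.5 CPM, the NP2 clusters had 2 and 0 counts, and the PEP2 cluster, led by Sst and Nppb, had 0 in both libraries. cLTMR had 13 control counts and 0 CFA counts of Tnfrsf1a, at most 0.42-fold. Among PEP1 clusters the Mfap5-led one went from 46.1 to 21.3 CPM (-1.11 [-2.13 to -0.22]). The interferon-rich Iigp1 cluster went from 42 counts in 18 of 35 cells to 1 count in 17 cells (29.5 and 2.32 CPM, -3.67 [-9.01 to -1.11]). In PEP1 neurons the interferon-induced list went from 624 to 222 CPM. In all neurons 0 of 6 members reached 2-fold, against 2.37% of 17111 genes higher and 2.81% lower. After thinning, the log2 ratio was past 2-fold for Il1r1 (1.28) and Il1rap (1.15), and Il1r1 was at 1.04 with every cell weighted equally.

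Tnfrsf1b, which encodes TNFR2, the receptor that responds best to membrane TNF and lacks a death domain, had its highest level in ICs, then ECs. ICs held 68.4% and 66.7% of its 263 control and 102 CFA counts. They stood at 193 CPM [165 to 223] and 157 CPM [122 to 199] (-0.30 [-0.72 to 0.11]), above ECs at 19.8 and 21.1 CPM (log2 3.28 [2.37 to 4.37] and 2.90 [1.70 to 4.39]). FBs, mural cells, myelinating SCs and erythroid cells had 0 counts in both libraries. In FBs this allows up to 2.63 and 4.77 CPM, where Tnfrsf1a stood at 117 and 66.7 CPM.

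Tnfrsf1b was found in subclusters named lymphoid as well as in myeloid ICs. T-like cells, whose subcluster also carried mast cell markers, stood at 240 and 313 CPM. Neutrophil-like cells stood at 249 and 145 CPM, the Cd209a subcluster at 256 and 169 CPM, macrophages at 205 and 146 CPM and control monocyte-like cells at 198 CPM. T-like cells had 1 and 0 counts of Tnfrsf1a, and B-like cells 2 and 0. Neurons had a low level of 1.68 and 1.67 CPM of Tnfrsf1b, in 6.69% and 6.54% of cells. By counts they came second to ICs, with 24.7% and 27.5% of all, beside 3.80% and 5.88% in ECs. Both receptors were seen in 36 of 420 control and 14 of 248 CFA ICs.

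The other genes of the pathway were taken as a list of 54, of which 45 had at least 20 counts in ICs. Of these 45, 4 were at least 2-fold higher and 2 at least 2-fold lower in CFA ICs, where 3.38% and 11.3% of all genes tested were, and the median log2 ratio was 0.22, beside the -0.13 of all genes tested. These IC ratios are of whole ICs, whose make-up differed between the libraries. Macrophages were 162 of 420 control and 152 of 248 CFA ICs, and all 34 monocyte-like cells were control cells. The part of this make-up in the pathway ratios here and below was not tested. A total of 32 of the 54 had their highest level in ICs, with both libraries summed and no minimum of counts. Of all genes with at least 20 counts, 15.5% did so within the control and 13% within the CFA library, which is a related but unlike measure.

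Among the 8 relatives of IL-1, 5 could be compared in ICs. Il18, an inflammasome-processed cytokine, stood at 15.0 and 39.2 CPM on 14 and 17 counts (1.39 [0.28 to 2.52]). Il18bp, its secreted inhibitor and a gene induced by interferon, stood at 42.8 and 9.23 CPM (-2.21 [-4.16 to -0.75]) and in SGCs at 39.5 and 5.66 CPM (-2.80 [-4.46 to -1.53]). Il33, an alarmin that also signals through IL1RAP, lay mainly in FBs, at 506 and 518 CPM (0.03 [-0.17 to 0.23]). Of all genes tested in ICs, 3.38% were at least 2-fold higher and 11.3% lower. Of the 6 relatives of TNF, 3 could be compared there and none reached 2-fold. Tnfrsf11a stood highest of them there, at 79.1 and 115 CPM (0.54 [-0.004 to 1.08]), and Ltbr next at 63.1 and 43.8 CPM (-0.53 [-1.35 to 0.24]). Tnfrsf11b, the RANKL decoy osteoprotegerin, lay mainly in FBs at 9.64 and 22.2 CPM (1.21 [-0.04 to 2.49]).

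The genes that process and carry the signal stayed within 2-fold in ICs, as most genes tested there did (3.38% were higher and 11.3% lower). These were 6 of 6 for processing and release, 13 of 13 adaptors and kinases with enough counts, and 5 of 5 NF-kB subunits. Their group medians were 0.29, 0.16 and 0.62. Nlrp3, the inflammasome sensor, stood at 297 and 482 CPM (0.70 [0.43 to 0.96]), Tab2, a kinase adaptor, at 197 and 191 CPM (-0.04 [-0.43 to 0.34]) and Nfkb1 at 387 and 408 CPM (0.08 [-0.19 to 0.34]). Nfkb2 stood at 123 and 214 CPM (0.80 [0.39 to 1.21]).

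Of the 13 NF-kB target genes, 3 were at least 2-fold higher and 1 lower in CFA ICs (3.38% and 11.3% of all genes), with a median of 0.30. Nfkbiz, a nuclear IκB protein, stood at 272 and 581 CPM (1.10 [0.84 to 1.35]), Ccl2, a monocyte chemokine, at 401 and 844 CPM (1.07 [0.86 to 1.29]) and Il6 at 7.49 and 39.2 CPM on 7 and 17 counts (2.39 [1.05 to 3.90]). Sod2, a mitochondrial superoxide dismutase, was lower at 253 and 111 CPM (-1.20 [-1.67 to -0.74]). The feedback inhibitors did not share one direction.

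Nfkbia stood at 771 and 669 CPM (-0.21 [-0.41 to -0.01]), Tnfaip3 at 374 and 316 CPM (-0.24 [-0.54 to 0.04]), Nfkbie at 95.2 and 120 CPM (0.33 [-0.19 to 0.84]) and Zfp36 at 1108 and 1100 CPM (-0.01 [-0.17 to 0.15]). The chemokine Cxcl2 stood at 2420 and 2971 CPM (0.30 [0.20 to 0.39]) and Cxcl1 at 108 and 101 CPM (-0.09 [-0.64 to 0.43]). The adhesion molecule Icam1 stood at 326 and 551 CPM (0.76 [0.51 to 1.01]), the survival gene Birc3 at 102 and 129 CPM (0.35 [-0.16 to 0.84]) and Ptgs2, which makes prostaglandin precursors, at 53.5 and 53.1 CPM (-0.01 [-0.79 to 0.73]). Il6 had most of its counts in neurons, where it went the other way, from 849 to 169 counts (22.0 and 10.1 CPM, -1.13 [-1.38 to -0.89]).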

How the data were processed

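The authors dissociated TG with papain, made BD Rhapsody libraries and deposited 1 matrix of raw UMI counts per gene and cell for each library. The processing notes name fastp and the genome build GRCm38, and the aligner, the counter and its use of strand were not given in the sources used here. Reads of Il1a cannot be told apart from its antisense gene Gm14023 (57 control and 27 CFA counts) if strand was not used. Other overlapping genes had 12 or fewer counts each. Gene positions are from GENCODE M21: Il1a 2:129299610-129309972, Il1b 2:129364570-129371139, Il1rn 2:24336853-24351494, Il1r1 1:40225080-40317257, Il1rap 16:26581704-26730117, Il1r2 1:40074079-40125231, Tnf 17:35199381-35202007, Tnfrsf1a 6:125349362-125362484 and Tnfrsf1b 4:145213463-145246870.

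From these counts, cells were kept if they had 150 genes or more and no more than 25% of counts from mitochondrial genes, and genes if seen in at least 2 cells. Cells were clustered with Seurat 5.3.0 in R 4.3.3 (2000 variable genes, 20 principal components, 20 neighbours, resolution 0.8, and 1 for ICs and neurons). The 9 genes and the pathway list were left out of clustering and naming. A cluster was named from at least 3 detected markers and a marker score of at least 0.55, a limit set after seeing the data, as was counting subtype markers as a class's own leading genes. A name was also withheld where the 10 leading genes held more markers of another class. The same was done where UMIs were low and no leading gene was a marker of the class. These rules left 297 control and 113 CFA cells unnamed. Of them, 284 and 95 were in a cluster that met the marker and score limits but had leading genes of another class. Doublets were kept, and removal of cells with a Scrublet score above 0.25 (122 control and 25 CFA cells; scanpy 1.11.5) was an alternative. Counts were summed per class and library. CPM and their exact intervals, shares with exact Clopper-Pearson intervals and ratios with conditional exact binomial intervals were computed in Python 3.11.15 with scipy 1.17.1. A class with 0 counts was given an upper limit of 3 counts. The 2-fold count used genes with at least 20 counts over both libraries in the class. The ratio intervals were tested on simulated counts.

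Named were the 9 genes, pathway genes at least 2-fold apart in ICs or in the class with most of their counts, the highest gene of each pathway group, the NF-kB targets in ICs and, for each of the 9, the 3 most alike genes. The members and lists were chosen with earlier results of these data known. The 15 alternatives changed the cell filters, the clustering, the weights of cells and clusters, the scaling and the depth, or removed doublets or clusters of 1 library. The files had 0 unused columns. 1 IC subcluster is not reported here by itself.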

Additional observations from a re-analysis of the deposited data

How the results depend on the processing

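No paired analysis was possible because each condition has 1 library. Among checks of values that answer a comparison, 220 stayed within the counting interval and 12 moved beyond it, and no ratio called 2-fold changed sign. Among checks of the other values, 439 stayed and 24 moved. Weighting the IC subclusters alike in both libraries, a choice made after seeing the data, gave log2 ratios in ICs of 0.48 for Il1a, 0.14 for Il1rn, 0.58 for Il1r2 and -0.61 for Tnf. Thinning cells to 500 UMIs (neurons to 5000) gave 1.84 for Il1a and -0.78 for Tnfrsf1a in ICs. It put 91.3% of control and 100% of CFA counts of Il1a, and 94.7% of control counts of Il1rn, in ICs. With every cell weighted equally those shares were 99.97% for Il1a in the CFA library and 94.9% for Il1rn in the control, and with 4000 variable genes the latter was 82.9%. The cause was not tested. Over its alternatives the IC ratio of Il1b ran from 1.10 to 1.31, that of Il1b in neutrophils from 1.58 to 2.28, of Tnf in macrophages from -0.81 to -0.50 and of Tnfrsf1a in ECs from -1.74 to -1.33. The SGC ratio of Tnfrsf1a ran from -1.21 to 0.47 and the neuronal one from -0.34 to 0.17, so neither has a fixed direction. The number of members at least 2-fold apart in ICs was 2 in each of the 12 alternatives in which it was counted, the equal weighting of subclusters not among them. Counts under about 20 per class leave ratios uncertain by 2-fold or more, and Il1r1 and Il1rap in single neuronal clusters, mural and erythroid cells are at that depth.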

Other observations

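For each member, the genes with the most alike pattern were found over 46 class by library points among 16316 genes with at least 50 counts, by Pearson's r of log2(CPM + 1). The points share libraries and depth, and r is a description. Il1a was most like Siglech and Lilra5 (both r = 0.95) and Clec4a1 (0.93). Il1b was most like Lilrb4a (0.98), Myo1f (0.94) and Osm (0.93), and Tnf like Lilrb4a (0.92), Il1b (0.89) and Ccr1 (0.88). Il1rn was most like Cd300ld, Clec4n and Bst1 (0.94 each), Il1r2 like Slpi and Wfdc17 (0.88 each) and Mcemp1 (0.87), and Tnfrsf1b like Slfn2 (0.94), Hcls1 (0.93) and Sla (0.92). The receptors found outside ICs had looser matches. Il1r1 was nearest to Zbtb7c (0.75), Cpxm1 (0.70) and Twist1 (0.70), Il1rap to 1700047M11Rik (0.77), Gjc3 (0.72) and Gm9945 (0.72), and Tnfrsf1a to Ifitm3 (0.81), Pgghg (0.80) and Rab20 (0.77).

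The subcluster led by Cd209a, Ace and Ear2 (42 control and 23 CFA cells) detected too few markers for a name. It scored 0.766 for dendritic cells and 0.717 for monocytes. All 6 monocyte markers had counts there, summing to 6229 CPM (control) and 3009 CPM (CFA). The list summed to 6036 CPM in the monocyte-like cells, and to 8034 and 4506 CPM in neutrophil-like cells. The Cd209a subcluster was higher in the CFA library for Il1a (77.5 and 245 CPM, log2 1.66 [0.35 to 3.01]), Il1b, Il1rn and Il1r2 together, while Tnf had 12 control counts and 1 CFA count there. The 5 cells with most counts held 87.9% of its CFA Il1b counts and 91.7% of its CFA Il1r2 counts.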
